A study of Mus musculus with 12 samples.

Results

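The genes described here are 10 calcium pumps, channels and regulators of calcium stores, chosen by gene name from the 54345 genes with a deposited expression value. They are Atp2a2 (SERCA2, which pumps calcium into the endoplasmic reticulum, ER), Atp2b1 and Atp2b4 (PMCA1 and PMCA4, which pump it out of the cell), Slc8a1 (NCX1, the sodium-calcium exchanger of the heart), Cacna1c (the pore of the L-type calcium channel), Itpr1, Itpr2 and Itpr3 (the inositol trisphosphate receptors, which release calcium from the ER), Stim1 (the ER calcium sensor) and Mcu (the pore of the mitochondrial calcium uniporter). Messenger RNA of H9c2 cells was sequenced after 6 h in 12 libraries, 3 in each of 4 groups. The groups were untreated cells (Unt), cells given doxorubicin (DOX), cells given DOX with dexrazoxane (D_DXZ) and cells given DOX with magnesium hexacyanoferrate nanocatalysts (D_MgHCF). DOX is an anthracycline drug against cancer that damages the heart, and dexrazoxane (DXZ) is an iron-chelating agent used to protect it. MgHCF is a Prussian blue analogue made as nanoparticles. The labels describe the cells as a wild-type myoblast line, with no transgene, and DOX was part of all 3 treated groups. The doses in the sequenced cells are not given in the sources used here, and no group received DXZ or MgHCF without DOX.

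A cell keeps calcium low in the cytosol by pumping it out across the plasma membrane and into the ER. Inositol trisphosphate opens the Itpr channels and empties the store, Stim1 senses the loss, and Stim1 then opens Orai channels in the plasma membrane so that calcium flows in and the store is refilled. Part of the released calcium is taken up by mitochondria through Mcu. In beating heart muscle the cycle instead runs through L-type channels, ryanodine receptors, SERCA2 and NCX1.

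Upstream sequences of 4 members are shown because these genes moved in different directions between the groups: Stim1 was highest in D_MgHCF, Mcu fell in every treated group, Itpr3 rose in DOX, and Itpr2 fell in DOX. They are the 250 bases before the RefSeq start site in the mouse reference (GRCm38.p6), written 5′ to 3′ on the strand of the gene, and are not the sequence of the cells used, which the paper describes as rat. Capitals mark matches on either strand to the GC box, spelled GGGCGG, to the CCAAT box, spelled as its name, or to the E-box, spelled CACGTG. The TATA box, searched as TATAAA, and the cAMP response element (CRE), searched as TGACGTCA, were also looked for. Overlapping matches run together.
Stim1, chr7:102267569-102267818, plus strand: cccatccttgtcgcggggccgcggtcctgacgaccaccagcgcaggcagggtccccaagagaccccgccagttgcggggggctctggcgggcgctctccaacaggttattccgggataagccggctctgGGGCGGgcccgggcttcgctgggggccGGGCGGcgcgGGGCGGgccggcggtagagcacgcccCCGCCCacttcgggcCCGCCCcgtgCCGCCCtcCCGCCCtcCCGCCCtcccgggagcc
Mcu, chr10:59616693-59616942, minus strand: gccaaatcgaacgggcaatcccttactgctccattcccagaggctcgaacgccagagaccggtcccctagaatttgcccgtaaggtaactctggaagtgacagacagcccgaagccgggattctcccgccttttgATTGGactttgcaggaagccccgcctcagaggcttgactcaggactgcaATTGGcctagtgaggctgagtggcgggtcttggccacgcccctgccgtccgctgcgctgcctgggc
Itpr2, chr6:146502224-146502473, minus strand: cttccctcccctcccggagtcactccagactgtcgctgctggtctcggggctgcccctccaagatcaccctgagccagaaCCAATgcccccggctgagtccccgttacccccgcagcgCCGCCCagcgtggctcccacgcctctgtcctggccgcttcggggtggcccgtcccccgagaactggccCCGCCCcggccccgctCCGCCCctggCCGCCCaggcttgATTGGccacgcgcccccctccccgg
Itpr3, chr17:27057054-27057303, plus strand: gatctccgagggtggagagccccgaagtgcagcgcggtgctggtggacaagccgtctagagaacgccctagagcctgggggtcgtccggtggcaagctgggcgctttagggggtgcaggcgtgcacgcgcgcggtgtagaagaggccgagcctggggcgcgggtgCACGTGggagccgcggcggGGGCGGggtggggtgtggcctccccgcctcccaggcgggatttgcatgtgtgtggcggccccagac

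Of 32851 mouse promoter windows of the same length, 32.7% held a GC box, 33.8% a CCAAT box, 6.02% an E-box, 12.4% a TATA box and 1.55% a CRE. The Stim1 window held 8 GC boxes and had a GC content of 78.4%, against a median of 52.4% over all windows. In the Mcu window, with a GC content of 60.8%, there were 2 CCAAT boxes and no GC box. Itpr2 had 4 GC boxes and 2 CCAAT boxes, and Itpr3 had 1 GC box and 1 E-box. Neither a TATA box nor a CRE was found in the 4 windows. The matches describe these letters only. RefSeq entries were found for 8 of the 10 members.

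The authors deposited FPKM values, which count sequenced fragments relative to gene length and to a factor for each library. The reads on genes behind them ranged from 16626514 to 19365119 per library. Genes with an FPKM above 0 numbered 23368 to 25456 per library in D_MgHCF. They numbered 20160 to 20660 in Unt, 18530 to 20381 in DOX and 19413 to 19662 in D_DXZ. Relative to the reads, the library factors contained in the values were 0.647 to 0.784 in DOX, 0.747 to 0.892 in D_DXZ, 1.32 to 1.38 in Unt and 1.26 to 1.43 in D_MgHCF. Replicates correlated at 0.989 or more on log2(FPKM + 1) in Unt, DOX and D_DXZ and at 0.942 to 0.984 in D_MgHCF, where replicate 3 stood apart and was the highest of the group for 6 of the 8 expressed members. The labels do not say whether replicates were separate cultures, so p-values measure the spread between these samples, which may be technical. In bulk RNA, fewer cells and less RNA per cell cannot be told apart. Among the markers of the labelled cell type, Des reached an FPKM of 1.57, in Unt. Cdh15 reached 1.04 in D_MgHCF but did not exceed 0.0252 in Unt, 0.324 in DOX and 0.0381 in D_DXZ. Chrna1 did not exceed 0.358, and Myod1, Myog, Myf5 and Myf6 did not exceed 0.126. Of 8 cardiomyocyte markers, only Gata4 reached an FPKM of 1, at 9.66 to 10.8 in Unt, 2.17 to 4.93 in DOX and 14.2 to 25.5 in D_MgHCF. The summed FPKM of 5 fibroblast markers, Vim for the most part, ranged from 281 to 335 in Unt, from 1010.0 to 1314 in DOX, from 801 to 1026 in D_DXZ and from 124 to 221 in D_MgHCF. Among these markers Pdgfra was lower in DOX (0.264 to 0.405) than in Unt (0.592 to 0.828), and the others were higher. No endothelial or epithelial marker reached an FPKM of 1, and of the macrophage markers Cd68 reached 4.77 while Ptprc and Adgre1 stayed below 0.015. The part of these marker shifts in the results below was not tested.

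Of the 10 members, 9 passed the filter for testing (FPKM above 0 in at least 3 libraries), and 8 had a mean FPKM of 0.79 or more in every group. A gene was called at a Benjamini-Hochberg adjusted p under 0.05 over all 25044 genes tested, in a limma fit to log2(FPKM + 1) with all 4 groups. In DOX against Unt, 1 member was higher (Itpr3) and 5 were lower (Atp2a2, Atp2b1, Itpr1, Itpr2 and Mcu), compared with 38.4% of all genes called, 18.6% higher and 19.9% lower. In D_DXZ against Unt, the same 6 genes were called in the same directions and Stim1 was also lower, giving 1 higher and 6 lower, with a background of 33.9% (15.9% higher and 18% lower). In D_MgHCF against Unt, 2 members were higher (Stim1 and Atp2b4) and 4 were lower (Atp2a2, Atp2b1, Itpr1 and Mcu), against 40.1% of all genes (24.3% higher and 15.7% lower). The 3 comparisons share the Unt libraries.

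Expressed genes were called more often than these backgrounds: of the 11515 genes tested with a mean FPKM of at least 1, 70.0% were called in DOX against Unt, 63.4% in D_DXZ against Unt and 51.5% in D_MgHCF against Unt. The 6, 7 and 6 members called of 9 tested are therefore near the share of expressed genes, and the number of calls by itself does not set the members apart. The count for D_DXZ against Unt was 4 without D_DXZ replicate 2. The median log2 fold change over the 9 members was -0.35 in DOX against Unt, -0.42 in D_DXZ against Unt and -0.14 in D_MgHCF against Unt, beside 0, 0 and 0.05 over all genes tested and 0.05, -0.02 and -0.08 over the expressed ones.

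Between the treated groups, Stim1 and Atp2b1 were higher and Itpr3 was lower in D_MgHCF than in DOX, 3 calls of 9, against 51.5% of all genes tested (31.4% higher and 20.1% lower) and 73.7% of the expressed ones. In D_MgHCF against D_DXZ, Stim1 and Itpr2 were higher and Mcu was lower, with a background of 48.4% (29.4% higher and 19% lower). Without D_MgHCF replicate 3, both counts were 5, with Atp2a2 lower in both comparisons. No member was called in D_DXZ against DOX, where 0% of all genes were called by limma. At an unadjusted p under 0.05 there were 2 members (Atp2b1 and Mcu, both higher in D_DXZ) and 2388 genes in all, and voom on the recovered reads also gave 0 members.

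**Figure D1:**
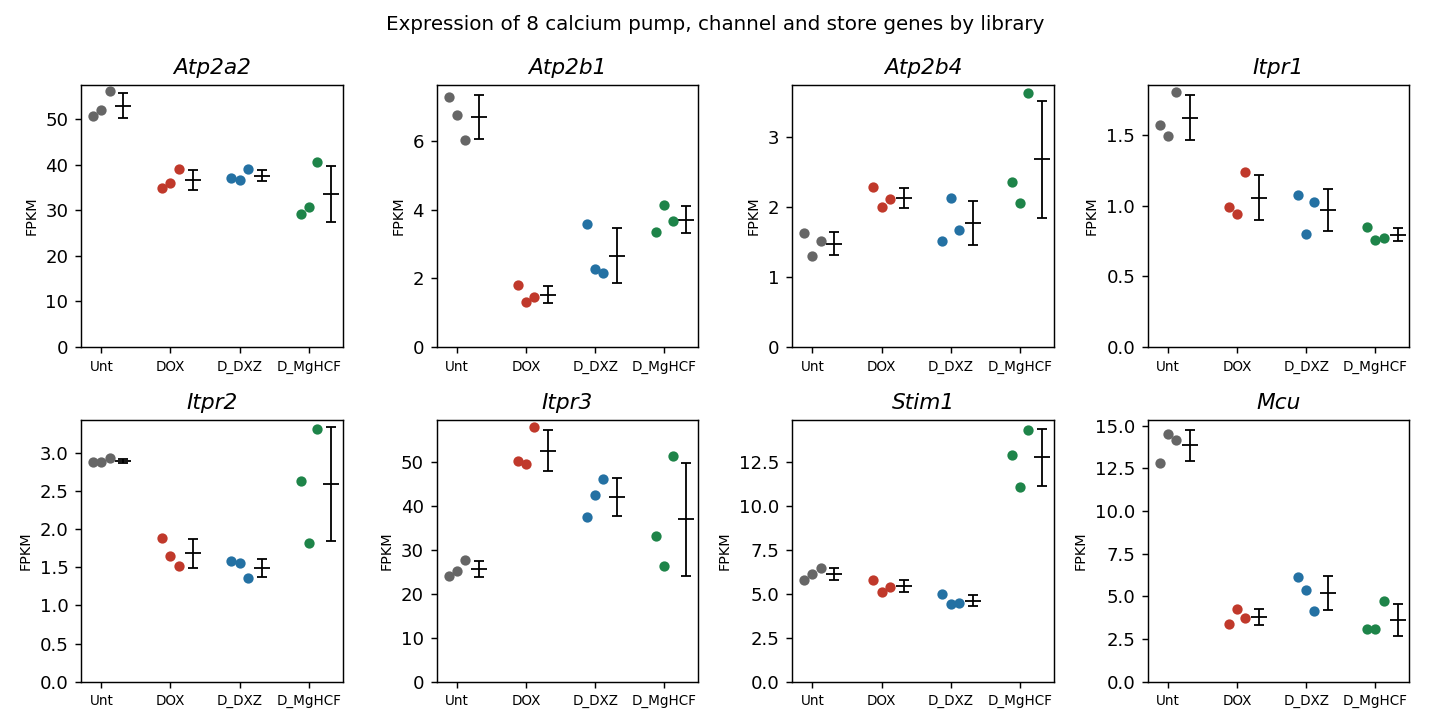
FPKM (linear axis from 0) of the 8 expressed members in each of the 12 libraries, with the mean and SD of each group (n = 3) beside the points. Mcu and Atp2b1 lie highest in the 3 Unt libraries. Itpr3 has its lowest mean in Unt, although D_MgHCF replicate 2 (26.5) lies below Unt replicate 3 (27.8). Stim1 stands at 11.1 to 14.3 in the 3 D_MgHCF libraries, above every other library.

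The pumps were the first group of members, and Atp2a2 was the most abundant of them. Atp2a2 (chr5:122453513-122502225) had FPKM of 50.7, 52.1 and 56.0 in the Unt libraries, 34.9, 36.0 and 39.1 in DOX, 37.1, 36.6 and 39.0 in D_DXZ, and 29.3, 30.7 and 40.5 in D_MgHCF. Every treated library lay below every Unt library, and the treated groups overlapped. The gene was 1.44 times lower in DOX than in Unt (log2 fold change -0.52 ± 0.11 SE, adjusted p = 0.0037), 1.41 times lower in D_DXZ (-0.48 ± 0.11, adjusted p = 0.0068) and 1.58 times lower in D_MgHCF (-0.66 ± 0.11, adjusted p = 0.0014). These 3 calls held under all 21 alternatives. In D_MgHCF against DOX its log2 difference was -0.14 (adjusted p = 0.33), which turned to 1.06, 0.68 and 0.80 and was called higher with TPM, quantile normalization and summed reads.

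Atp2b1 (chr10:98914406-99026143), which encodes the plasma membrane pump found in most tissues, fell further. Its FPKM was 7.29, 6.77 and 6.04 in Unt, 1.81, 1.32 and 1.45 in DOX, 3.57, 2.26 and 2.15 in D_DXZ, and 3.36, 4.12 and 3.65 in D_MgHCF. The DOX libraries were the lowest 3 of the 12, and the Unt libraries the highest 3. The decrease from Unt was 4.39-fold in DOX (log2 fold change -1.61 ± 0.16 SE, adjusted p = 2.7e-05), 2.52-fold in D_DXZ (-1.09 ± 0.16, adjusted p = 0.00043) and 1.81-fold in D_MgHCF (-0.71 ± 0.16, adjusted p = 0.006). Compared with DOX, it was 2.43-fold higher in D_MgHCF (0.90 ± 0.16, adjusted p = 0.00085). The value in D_DXZ was 1.74 times that in DOX with no overlap of the libraries, but did not pass the test (0.52 ± 0.16, adjusted p = 0.37). The 4 calls held under all 21 alternatives.

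The other plasma membrane pump, Atp2b4 (chr1:133699457-133801041), showed no such decrease. FPKM was 1.63, 1.29 and 1.51 in Unt, 2.29, 2.00 and 2.11 in DOX, 1.51, 2.12 and 1.68 in D_DXZ, and 2.36, 2.06 and 3.63 in D_MgHCF. The libraries of D_MgHCF and DOX lay above those of Unt, and those of D_DXZ overlapped all other groups. The rise in D_MgHCF over Unt was 1.82-fold (log2 fold change 0.55 ± 0.17 SE, adjusted p = 0.026), and 6 of the 21 alternatives ended this call, among them the removal of any Unt library (adjusted p = 0.051 to 0.089). In DOX against Unt the log2 difference was 0.34 ± 0.17 (adjusted p = 0.15), and it passed in the fit of these 2 groups alone (adjusted p = 0.026), with quantile normalization (0.017) and without D_MgHCF replicate 3 (0.039), but turned to -0.69 with TPM scaling.

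Shares of deposited FPKM within a library do not change with the factor applied to that library, although quantile normalization, which is no single factor, can change them. How well reads of cells described as rat matched the mouse model of each gene was not tested, which limits comparisons of level between genes. Atp2b4 made up 18.1% ± 1.98 (SD, n = 3) of the summed FPKM of both plasma membrane pumps in Unt, 58.5% ± 2.34 in DOX, 40.7% ± 9.75 in D_DXZ and 41.5% ± 8.25 in D_MgHCF. The share in each treated group lay above that in Unt, and the shares in D_DXZ and D_MgHCF lay below that in DOX, without overlap of the libraries (two-sided exact permutation test p = 0.1 each, the smallest that 3 against 3 allow, and 0.12 after adjustment over the 6 comparisons). Between D_MgHCF and D_DXZ the difference was 0.815 ± 7.37 percentage points (SE, exact p = 0.9). Of the summed FPKM of all 3 pumps, Atp2a2 held 86.6% ± 1.54 in Unt, 90.9% ± 1.21 in DOX, 89.4% ± 1.56 in D_DXZ and 83.9% ± 0.777 in D_MgHCF. The D_MgHCF libraries had the lowest 3 of these shares, and the DOX and Unt libraries did not overlap (exact p = 0.1, adjusted 0.15).

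**Figure D2:**
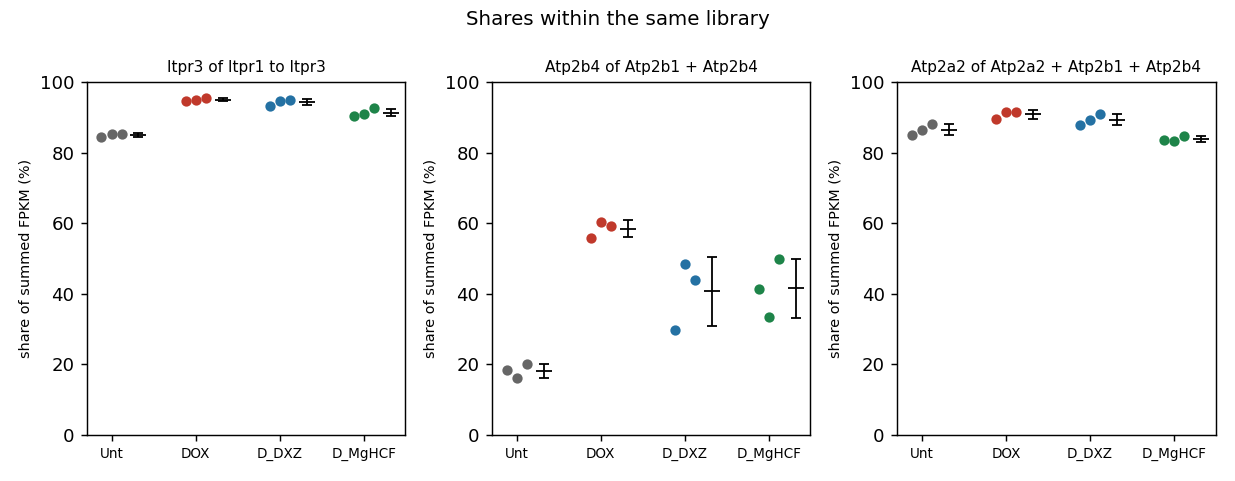
Share (%) of one gene in the summed FPKM of the genes named above each panel, per library, with the mean and SD of each group (n = 3). Atp2b4 rises from 18.1% of both plasma membrane pumps in Unt to 58.5% in DOX, and Itpr3 makes up 85.0% of the 3 receptors in Unt and 95% in DOX.

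The further genes of these families were low. Atp2a3 (SERCA3) had a mean FPKM of 1.46 in Unt and between 0.36 and 0.37 in the treated groups, a decrease called in all 3 (log2 fold change -0.85, -0.85 and -0.87). Its level in Unt was close to that of Atp2b4. Atp2a1, the SERCA of fast skeletal muscle, did not exceed an FPKM of 0.78, and Atp2b2, Atp2b3 and Pln, which encodes the SERCA inhibitor phospholamban, stayed below 0.09.

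The 2 members best known from the beating heart, Slc8a1 and Cacna1c, were close to the detection limit. Slc8a1 had no read in 11 libraries and 1 read in DOX replicate 3. A count of 0, taken as up to 3 reads, allows an FPKM of up to 0.0402 to 0.0797 in the 11 libraries, for counting error only. The deposited gene model covers chr17:81388691-81649607 and 2934 bases, whereas GENCODE M21 places 18807 exonic bases between 81373105 and 81738377. The value rests on a model that lacks most exonic bases of the current annotation, and RNA from the rest of the gene is not measured here. Slc8a1 did not pass the filter and was not tested.

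Cacna1c (chr6:118587240-119196418) had 7, 11 and 6 reads in the Unt libraries, 2, 3 and 1 in DOX, 1, 4 and 9 in D_DXZ, and 20, 23 and 12 in D_MgHCF. The highest FPKM was 0.0449. The D_MgHCF libraries held the most reads. In FPKM they lay above those of Unt and DOX, but D_MgHCF replicate 3 (0.0231) lay below D_DXZ replicate 3 (0.0318). Their mean FPKM was 0.0369, against 0.00711 in DOX. More genes were detected in the D_MgHCF libraries in general (23368 to 25456, against 18530 to 20381 in DOX). The part of this in the rise of Cacna1c was not tested. In the fit to log2(FPKM + 1) the difference from DOX was 0.04 ± 0.02 (adjusted p = 0.082), a scale on which values this low hardly move, and 6 of the 21 alternatives called it, among them voom on the recovered reads (adjusted p = 0.018) and the removal of D_MgHCF replicate 3 (0.034). Among the accessory subunits, Cacna2d1 was 3.03 times higher in DOX than in Unt (log2 fold change 1.35 ± 0.16 SE, adjusted p = 7.8e-05) and 3.57 times lower in D_MgHCF than in DOX (-1.54 ± 0.16, adjusted p = 3.2e-05). The rise of Cacna2d1 in DOX was lost with TPM scaling (0.21, adjusted p = 0.21), and its fall in D_MgHCF held under all 21 alternatives. Cacnb3 was 1.94 times higher in DOX than in Unt (0.91 ± 0.21, adjusted p = 0.0051), but with TPM scaling its direction turned (-0.40). Its call was also lost with quantile normalization (0.59, adjusted p = 0.085) and over summed reads (0.01). Another pore gene of voltage-gated channels, Cacna1g, had FPKM of 12.3 to 25.9 and was called higher in each treated group than in Unt. With TPM none of these calls was kept. Those in DOX and D_DXZ were also lost with quantile normalization and over summed reads. The ryanodine receptors Ryr1, Ryr2 and Ryr3, the release channels of striated muscle, did not exceed an FPKM of 0.052.

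Among the release channels of the ER, Itpr3 was the most abundant in every library. In the Unt libraries Itpr3 (chr17:27057304-27122223) had FPKM of 24.1, 25.3 and 27.8, followed by 50.3, 49.5 and 58.0 in DOX, 37.5, 42.6 and 46.2 in D_DXZ, and 33.3, 26.5 and 51.4 in D_MgHCF. DOX and D_DXZ lay above Unt in every library, whereas D_MgHCF spread from the level of Unt to that of DOX. Itpr3 was 2.04-fold higher in DOX than in Unt (log2 fold change 1.00 ± 0.20 SE, adjusted p = 0.0019) and 1.64-fold higher in D_DXZ (0.69 ± 0.20, adjusted p = 0.020). Both calls were lost with TPM scaling, where the directions turned (-0.33 and -0.48), with quantile normalization (0.13 and 0.04) and with summed reads (0.08 and -0.055). Relative to the median gene, the values were 0.84 and 0.62 with TPM, 0.11 and 0.04 after quantile normalization and 0.76 and 0.57 over summed reads. The call in D_DXZ also ended without Unt replicate 1 or 2 or D_DXZ replicate 2 or 3 (adjusted p = 0.057 to 0.074). The fall in D_MgHCF against DOX (-0.54 ± 0.20, adjusted p = 0.040) was absent in 14 of the 21 alternatives. Its direction turned with TPM (0.66, called higher at an adjusted p of 0.031), quantile normalization (0.42) and summed reads (0.40). Among the 14 were 9 removals, of any Unt or DOX library, of D_DXZ replicate 2 or of D_MgHCF replicate 1 or 2 (adjusted p = 0.052 to 0.14).

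Itpr1 (chr6:108213096-108551109), the receptor best known from the brain, was the least abundant of the 3. FPKM was 1.57, 1.5 and 1.81 in Unt, 0.992, 0.945 and 1.24 in DOX, 1.08, 0.800 and 1.03 in D_DXZ, and 0.847, 0.761 and 0.774 in D_MgHCF. All 9 treated libraries were below the 3 Unt libraries. It was 1.53 times lower in DOX (log2 fold change -0.35 ± 0.12 SE, adjusted p = 0.039), 1.68 times lower in D_DXZ (-0.42 ± 0.12, adjusted p = 0.020) and 2.05 times lower in D_MgHCF (-0.55 ± 0.12, adjusted p = 0.0052). The call in DOX was lost in 10 of the 21 alternatives and in D_DXZ in 4, including quantile normalization (-0.03 and -0.18), and that in D_MgHCF in none. Libraries that ended the call when removed were any of Unt, DOX replicates 1 and 2 and D_DXZ replicate 3 for DOX (adjusted p = 0.054 to 0.14), and Unt replicates 1 and 3 and D_DXZ replicate 2 for D_DXZ (0.052 to 0.085).

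Itpr2 (chr6:146108299-146502223), the receptor that prevails in heart muscle cells, had FPKM of 2.88, 2.88 and 2.93 in Unt, 1.89, 1.65 and 1.51 in DOX, 1.58, 1.55 and 1.36 in D_DXZ, and 2.63, 1.82 and 3.32 in D_MgHCF. DOX and D_DXZ lay below Unt without overlap, and D_MgHCF reached from within the range of DOX to above Unt. The gene was 1.72 times lower in DOX than in Unt (log2 fold change -0.54 ± 0.16 SE, adjusted p = 0.018) and 1.94 times lower in D_DXZ (-0.65 ± 0.16, adjusted p = 0.0081). Quantile normalization ended both calls (-0.09 and -0.30), and the call in DOX also ended without any single Unt library or DOX replicate 2 or 3 (adjusted p = 0.052 to 0.065). In D_MgHCF it was 1.73-fold higher than in D_DXZ (0.50 ± 0.16, adjusted p = 0.022), a call lost without D_DXZ replicate 3 (adjusted p = 0.070), in the fit of 2 groups (0.13) and with quantile normalization (log2 difference 0.18, adjusted p = 0.45). The difference from DOX, 0.40 ± 0.16, had an adjusted p of 0.053. Itpr2 was called higher there with TPM (1.51), over summed reads (1.03) and with voom (adjusted p = 0.036). A pseudocount of 0.1 (adjusted p = 0.048), a filter at FPKM 1 (0.030) and the removal of D_MgHCF replicate 2 (0.0077) also called it. Quantile normalization turned the difference to -0.038.

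The proportions of the receptors were also compared. Itpr3 accounted for 85.0% ± 0.559 (SD, n = 3) of the summed FPKM of the 3 receptors in Unt, 95% ± 0.446 in DOX, 94.4% ± 0.900 in D_DXZ and 91.4% ± 1.07 in D_MgHCF. The 3 Unt libraries had the lowest shares, from 84.4% to 85.4%, and the 3 D_MgHCF libraries the next, from 90.6% to 92.6%, so that D_MgHCF overlapped neither Unt nor DOX nor D_DXZ (exact permutation p = 0.1 each, adjusted 0.12). DOX and D_DXZ overlapped (exact p = 0.5). A different factor for a library leaves these proportions as they are. Quantile normalization does not, and after it the log2 fold changes of Itpr1, Itpr2 and Itpr3 in DOX against Unt were -0.03, -0.09 and 0.13.

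Stim1 (chr7:102267806-102437319) was the one member called higher in all 3 comparisons of D_MgHCF. Its FPKM was 5.81, 6.12 and 6.49 in Unt, 5.80, 5.13 and 5.41 in DOX, 4.97, 4.41 and 4.48 in D_DXZ, and 12.9, 11.1 and 14.3 in D_MgHCF. The 3 D_MgHCF libraries were the highest of the 12, and the 3 D_DXZ libraries the lowest. In D_MgHCF it was 2.08-fold higher than in Unt (log2 fold change 0.94 ± 0.10 SE, adjusted p = 0.00011), 2.35-fold higher than in DOX (1.09 ± 0.10, adjusted p = 1.7e-05) and 2.77-fold higher than in D_DXZ (1.29 ± 0.10, adjusted p = 1.1e-05). These calls held under all 21 alternatives. The decrease in D_DXZ against Unt was small (-0.35 ± 0.10, adjusted p = 0.023) and ended without Unt replicate 2 or 3 or D_DXZ replicate 2 or 3 (adjusted p = 0.068 to 0.088) or with quantile normalization (-0.03). In DOX against Unt the difference was -0.15 ± 0.10 (adjusted p = 0.33), and it turned to 0.19 with quantile normalization. Stim1 was called lower there with TPM (-1.45, adjusted p = 6.6e-05) and over summed reads (-0.95, adjusted p = 0.0002). The median expressed gene moved to -1.18 and -0.69 under these 2 scalings.

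Several partners of Stim1 were lower in DOX. Orai1, the pore of store-operated entry, had FPKM of 4.09, 4.58 and 5.12 in Unt, 1.95, 0.713 and 0.640 in DOX, 1.46, 1.66 and 0.718 in D_DXZ, and 6.22, 9.72 and 8.27 in D_MgHCF. It was 4.17 times lower in DOX than in Unt (log2 fold change -1.46 ± 0.26 SE, adjusted p = 9e-04) and 7.33-fold higher in D_MgHCF than in DOX (2.15 ± 0.26, adjusted p = 6.9e-05). Orai3, a related pore, went from a mean of 7.39 in Unt to 2.01 in DOX, 2.01 in D_DXZ and 9.67 in D_MgHCF (-1.52 ± 0.33 and 1.78 ± 0.33 for DOX against Unt and D_MgHCF against DOX, adjusted p = 0.0036 and 0.0012). Stim2, the second ER sensor, had means of 6.25, 1.69, 2.24 and 4.98 in the same order (-1.44 ± 0.15 and 1.15 ± 0.15, adjusted p = 4.2e-05 and 0.00014). Orai1, Orai3 and Stim2 were not called between D_MgHCF and Unt (adjusted p = 0.056, 0.58 and 0.17). All D_MgHCF libraries of Orai1 lay above all Unt libraries, however, and quantile normalization, summed reads and voom called it higher. In the main test Orai2 was not called in any comparison. All of the calls given here for Orai1, Orai3 and Stim2 held under the 21 alternatives.

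Of the 8 further genes of store-operated entry that were tested, 5 fell in DOX relative to Unt, beside 19.9% of all genes and 33.3% of expressed genes called lower (Orai1, Orai3, Stim2, Trpc1 and Stimate, a Stim1 activator that the table lists as Tmem110) and 1 rose (Saraf, which encodes a brake on Stim1). With D_MgHCF against DOX, 4 of them were higher (Orai1, Orai3, Stim2 and Stimate) and Saraf was lower. In that comparison 31.4% of all genes and 33.5% of expressed genes were called higher. Under the 4 other scalings, the number lower in DOX was 4 (quantile normalization) to 7 (TPM) of the 8. Over all 25044 genes these scalings called 4340 and 10227 lower. Orai1, Orai3, Stim2 and Stimate kept both calls under the 4 other scalings. Saraf kept its rise in DOX only in voom, with -0.39 in TPM and -0.10 after quantile normalization, and in D_MgHCF against DOX it was called higher with TPM, quantile normalization and summed reads. The median log2 fold change of the 8 genes was -0.90 in DOX against Unt and 0.61 in D_MgHCF against DOX.

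**Figure D3:**
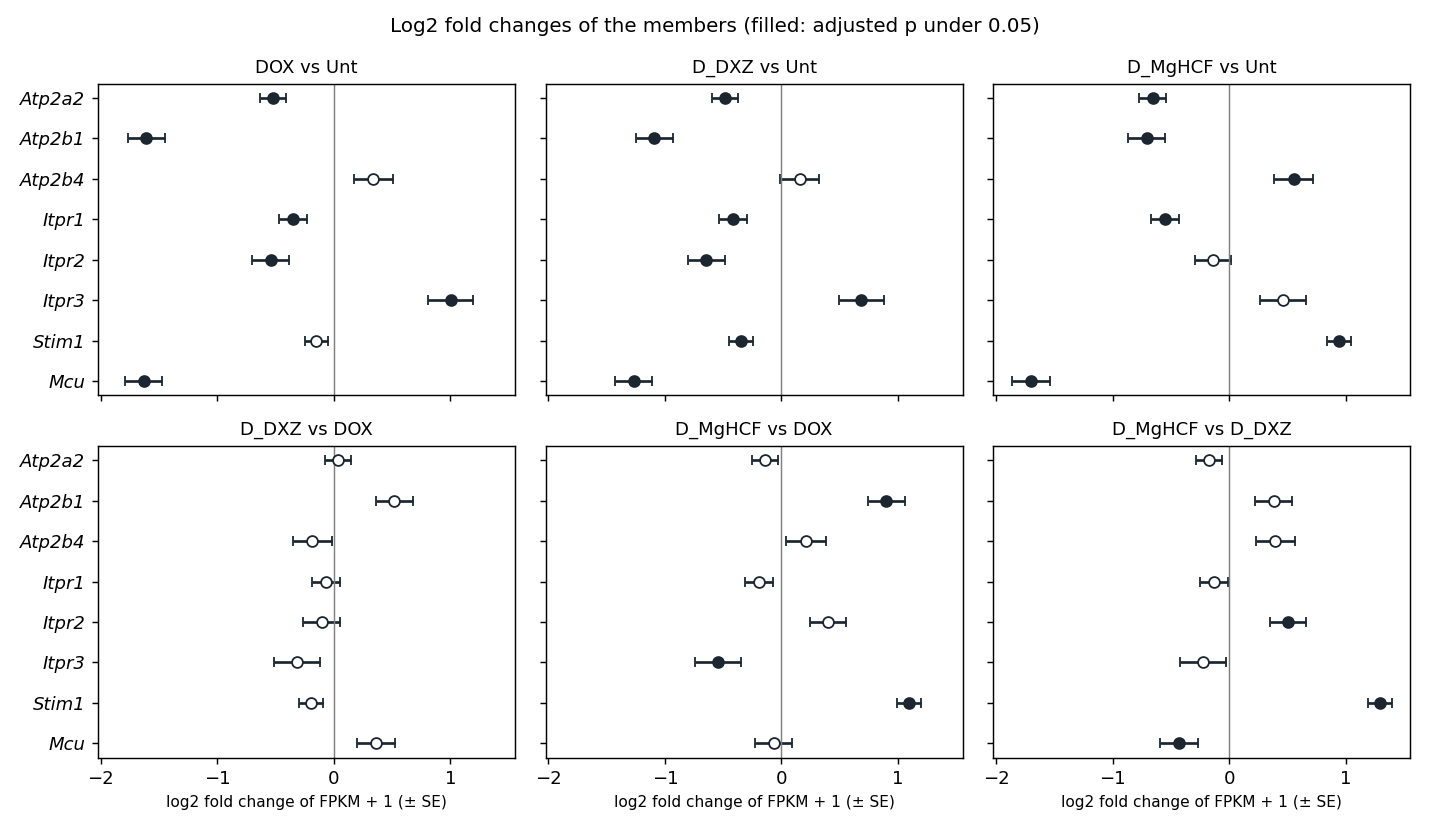
Log2 fold changes of FPKM + 1 with their SE for the 8 expressed members in the 6 comparisons (first group minus second), filled where the adjusted p was under 0.05. Mcu and Atp2b1 lie at or beyond -0.70 in all 3 treated groups against Unt, and Stim1 lies at 0.94 to 1.29 in the 3 comparisons of D_MgHCF.

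Mcu (chr10:59446984-59616692) had the lowest log2 fold change among the members in each treated group against Unt, while in the ratio of mean FPKM Atp2b1 fell further in DOX. Its FPKM was 12.8, 14.5 and 14.2 in Unt, 3.36, 4.28 and 3.75 in DOX, 6.12, 5.36 and 4.13 in D_DXZ, and 3.06, 3.10 and 4.71 in D_MgHCF. All treated libraries lay at or below 6.12, less than any Unt library, and they overlapped each other. The decrease from Unt was 3.64-fold in DOX (log2 fold change -1.63 ± 0.16 SE, adjusted p = 2.8e-05), 2.66-fold in D_DXZ (-1.27 ± 0.16, adjusted p = 0.00022) and 3.82-fold in D_MgHCF (-1.70 ± 0.16, adjusted p = 6e-05), and each call held under all 21 alternatives. Between D_MgHCF and DOX the difference was -0.07 ± 0.16 (adjusted p = 0.75), and TPM (1.02) and summed reads (0.69) called it higher in D_MgHCF. Mcu was also called lower in D_MgHCF than in D_DXZ (-0.43 ± 0.16, adjusted p = 0.0497), although the libraries overlapped, and this was lost in 15 of the 21 alternatives. These include 10 removals, of any Unt or DOX library, D_DXZ replicate 1 or 2 or D_MgHCF replicate 1 or 2 (adjusted p = 0.057 to 0.16). Its direction there turned with TPM scaling (0.47). Gm10322 overlaps Mcu on the opposite strand over 336 bases and had at most 15 reads, compared with 301 to 2414 reads on Mcu.

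Further genes of mitochondrial uptake were measured beside Mcu. Smdt1 (EMRE), a small subunit that the channel needs to conduct calcium, was 4.03-fold higher in DOX than in Unt (log2 fold change 1.98 ± 0.18 SE, adjusted p = 2e-05) and 3.07 times lower in D_MgHCF than in DOX (-1.64 ± 0.18, adjusted p = 4.9e-05), and both calls held under all 21 alternatives. Micu2, a regulator of the uniporter, was not called in DOX against Unt and was lower in D_MgHCF than in Unt, DOX and D_DXZ (-0.80, -1.07 and -0.89). However, TPM, quantile normalization and summed reads called Micu2 lower in DOX than in Unt. With TPM and summed reads it was not called in D_MgHCF against DOX or D_DXZ, while its fall against Unt was called under each scaling. Mcub, a pore subunit that lowers uptake, was higher in DOX than in Unt (0.40, adjusted p = 0.033) and lower in D_MgHCF than in DOX (-0.79, adjusted p = 0.00057), but TPM and summed-read scaling called it lower in DOX.

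The list of further calcium genes held 77, of which 73 were tested. In DOX against Unt, 25 were higher and 12 lower, in D_DXZ against Unt 21 and 10, and in D_MgHCF against Unt 20 and 13. Together these are 50.7%, 42.5% and 45.2% of the 73, beside 38.4%, 33.9% and 40.1% of all genes tested and 70.0%, 63.4% and 51.5% of the expressed ones. With D_MgHCF, 19 were higher and 26 lower than in DOX, and 18 were higher and 22 lower than in D_DXZ (61.6% and 54.8% in all, beside 73.7% and 68.5% of expressed genes). None was called in D_DXZ against DOX, where 5 had an unadjusted p under 0.05. The split in DOX against Unt turned to 11 higher and 28 lower with TPM and to 13 and 19 over summed reads, and that in D_MgHCF against DOX to 37 and 12 and to 34 and 16. In D_DXZ against Unt it became 11 and 29 with TPM, 12 and 20 over summed reads and 13 and 12 after quantile normalization. For D_MgHCF against D_DXZ it became 38 and 13 with TPM and 31 and 15 over summed reads, and for D_MgHCF against Unt 18 and 18 with TPM. The count in D_MgHCF against Unt fell from 33 to 21 without Unt replicate 1 and to 20 without Unt replicate 2.

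Of 9 calcium-binding proteins of the store that were tested, 6 were higher in DOX than in Unt (Calr, Canx, Calu, Rcn1, Sdf4 and Hspa5) and Casq1, Casq2 and Hrc were not called, beside 18.6% of all genes and 36.7% of expressed genes called higher. The same 6 were lower in D_MgHCF than in DOX, beside 20.1% and 40.1%, but with TPM Sdf4 was called higher and Calr and Hspa5 were not called. Calr, the main calcium buffer of the ER, was 5.08-fold higher in DOX (log2 fold change 2.33 ± 0.19 SE, adjusted p = 1.3e-05) and Canx, its membrane-bound relative, 4.42-fold (2.12 ± 0.20, adjusted p = 2.4e-05). The rises of Calr, Calu, Canx and Rcn1 in DOX were called under all 4 other scalings, while Hspa5 was called lower with TPM and quantile normalization. In D_MgHCF against DOX, Rcn1 was 4.40 times lower (-2.18 ± 0.28, adjusted p = 0.0001), the one of the 6 still called after quantile normalization.

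The genes with the largest changes included several that act on the members. Fkbp1a, whose product binds and steadies release channels, was 4.86-fold higher in DOX than in Unt (2.25 ± 0.20, adjusted p = 1.7e-05). Itprid2, named after its domain that interacts with Itpr proteins and listed as Ssfa2, was 3.38 times lower (-1.44 ± 0.17, adjusted p = 6.3e-05). The largest rises and falls in D_DXZ against Unt belonged to the same 6 genes as in DOX against Unt, namely Calr (2.13), Canx (2.02), Fkbp1a (1.99), Orai3 (-1.5), Orai1 (-1.32) and Itprid2 (-1.30). In D_MgHCF, Rcan1, a target and inhibitor of the calcium-dependent phosphatase calcineurin, was 3.15-fold higher than in Unt (1.55 ± 0.21, adjusted p = 0.00037), 5.61-fold higher than in DOX (2.32 ± 0.21, adjusted p = 1.5e-05) and 6.18-fold higher than in D_DXZ (2.41 ± 0.21). Ppp3ca, the catalytic subunit of calcineurin, was lower than in Unt (-1.49 ± 0.22), DOX (-2.40 ± 0.22) and D_DXZ (-1.94 ± 0.22), and its paralogue Ppp3cb was lower than in Unt (-1.10 ± 0.27). Vdac3, a channel of the outer mitochondrial membrane, was lower in the same 3 comparisons (-1.86, -2.35 and -2.04). Further rises over Unt were those of Hrc, a calcium-binding protein of the muscle store, with a mean FPKM of 1.5 against 0.0904 (1.15 ± 0.21), and Nfatc4, a target of calcineurin (0.98 ± 0.22). The level of Hrc in Unt was low, and more genes were detected in D_MgHCF than in Unt in general. The part of this in its rise was not tested.

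**Figure D4:**
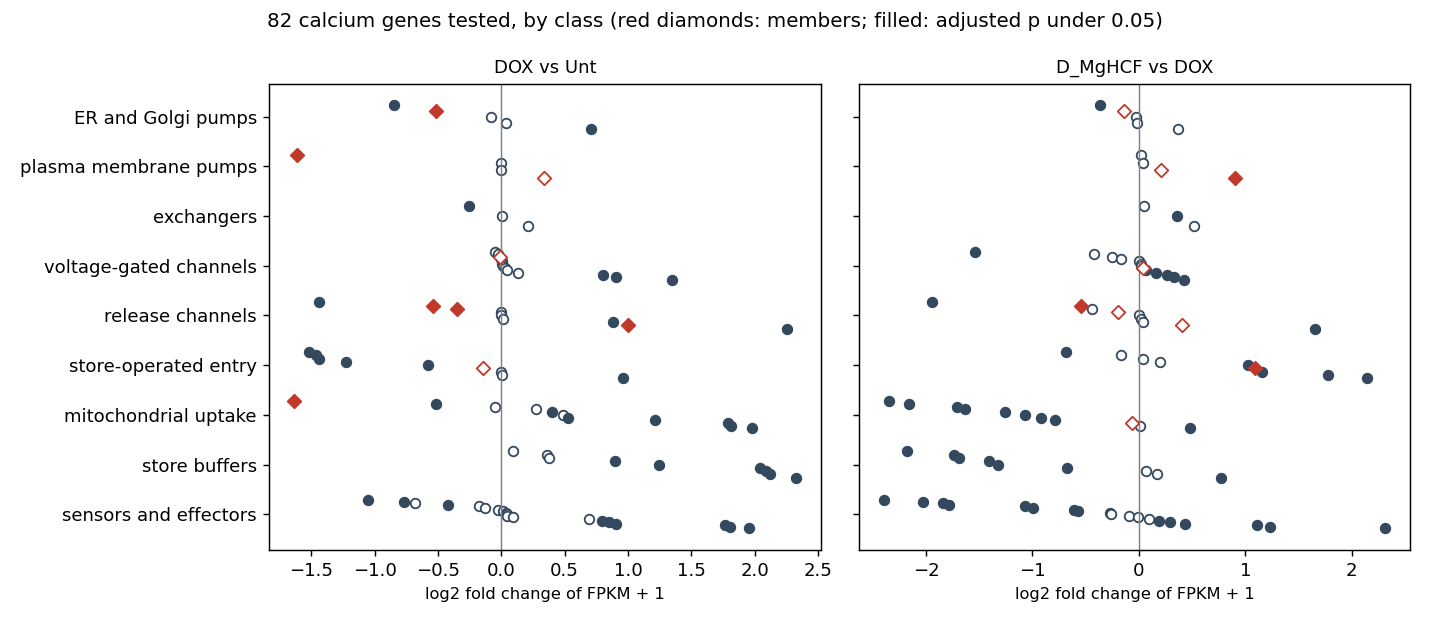
Log2 fold changes of FPKM + 1 of the 82 calcium genes tested, by class, in DOX against Unt and D_MgHCF against DOX. Red diamonds are members, circles the 73 other genes, and filled symbols had an adjusted p under 0.05. In DOX most called genes of store-operated entry lie to the left and the called store buffers to the right, and in D_MgHCF against DOX the order is turned.

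The direction of a change depended on the scaling for some members. Over the 11515 expressed genes, conversion to TPM moved the median log2 fold change from 0.05 to -1.18 in DOX against Unt, from -0.02 to -1.10 in D_DXZ against Unt and from -0.09 to 0.99 in D_MgHCF against DOX. Scaling by the summed reads moved them to -0.69, -0.62 and 0.67. Relative to that median, 7 of the 8 expressed members stayed on the same side in DOX against Unt under 5 scalings (all but Stim1), and all 8 did so in D_DXZ against Unt and in D_MgHCF against Unt. Mcu lay 1.54 to 1.94 below the median gene in DOX, Atp2b1 1.23 to 2.20 below it, and Itpr3 0.11 to 0.96 above it. In D_MgHCF against DOX, Stim1 lay 1.13 to 1.34 above the median and Atp2b1 0.57 to 1.40 above it, whereas Atp2a2, Atp2b4, Itpr3 and Mcu changed sides. In called members, TPM gave 0 higher and 6 lower in DOX against Unt and 9 higher and 0 lower in D_MgHCF against DOX, and scaling by summed reads gave 0 and 6, and 7 and 0. Over all genes, TPM called 1111 higher and 10227 lower in DOX against Unt and 13504 higher and 1691 lower in D_MgHCF against DOX, and summed reads called 2075 and 8303, and 12376 and 2401, so the background was split to the same side. For D_DXZ against Unt the splits of members with TPM and summed reads were 0 and 7, and 0 and 6. Over all genes they were 913 and 10083, and 1913 and 7946. For D_MgHCF against D_DXZ the members split 8 and 0, and 7 and 0, and all genes 12801 and 1559, and 11426 and 2382. Quantile normalization gave 0 and 3 in D_DXZ against Unt and 2 and 2 in D_MgHCF against D_DXZ, voom gave 4 and 1 in D_MgHCF against DOX and against D_DXZ, and TPM and quantile normalization gave 1 and 4 in D_MgHCF against Unt. Over all genes, quantile normalization called 3517 and 3661 in D_DXZ against Unt and 4587 and 4840 in D_MgHCF against D_DXZ. Voom called 7251 and 5116 in D_MgHCF against DOX, and 6974 and 4916 against D_DXZ. In D_MgHCF against Unt, TPM called 6652 and 4814, and quantile normalization 4252 and 4627.

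The members also share long gene bodies. Their genomic spans ranged from 48.7 kb (Atp2a2) to 609 kb (Cacna1c), compared with a median of 23.5 kb over 9981 expressed protein-coding genes, and each member was longer than at least 72.8% of them. Over those genes, the median log2 fold change in DOX against Unt was 0.31 for spans under 10 kb, 0.05 for 10 to 30 kb, -0.24 for 30 to 100 kb, -0.45 for 100 to 300 kb (999 genes) and -0.20 over 300 kb (146 genes). Mcu and Atp2b1 (-1.63 and -1.61) lay below the lower quartile of their span class, -1.09, and Stim1 (-0.15) and Atp2b4 (0.34) above its median. Itpr3 (1.00) lay above the upper quartile of 0.60 of the class of 30 to 100 kb. Atp2a2 (-0.52) lay within the quartiles of the same class (-0.94 to 0.60). Itpr1 (-0.35) and Itpr2 (-0.54) lay within those of the class over 300 kb (-0.81 to 0.71). In D_MgHCF against Unt the medians were 0.14, -0.07, -0.22, -0.34 and -0.64 in the same order of spans. The part of gene length in the members' changes was not tested.

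Near-identical stretches in other genes were rare. Transcripts of Atp2b1 share 468 bases at 98.1% identity with Gm29808, which had no read in any library, and those of Itpr1 share 184 bases at 100% with Gm44101, whose highest FPKM was 0.0179. Atp2a2 shares 362 bases at 99.2% with Gm30970, and Slc8a1 309 bases at 99.0% with AC122399.1, both not analysed here. Reads of these stretches could be split between the copies.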

How the data were processed

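Poly(A) RNA of H9c2 cells (described as rat in the paper, labelled Mus musculus) was sequenced as paired-end reads of 150 bp. The authors deposited FPKM values of 54345 genes with mouse Ensembl identifiers. Their processing notes name HISAT2 2.0.5 and GRCm38 (mm10). The counting program, the annotation release and the handling of reads that differ from the mouse genome are not given in the sources used here. The kit is not stated to mark the strand. No sample column was left unused.

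FPKM multiplied by gene length was a whole multiple of 1 step per library (tolerance 0.05 reads), so that whole reads were recovered for all values. The implied scaling equalled a median-ratio factor of these reads. Genes were fitted with limma 3.58.1 (R 4.3.3; trended prior, no covariate) on log2(FPKM + 1), which understates changes of low genes. Shares were compared with two-sided exact permutation tests. The fit was tested on simulated data beforehand. Depth and a count of 0 (up to 3 reads) cover counting error only. All 12 libraries were used, mapped by their labels.

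The members, gene lists and tests were chosen with earlier results of these data known. Genes named beside the members are a fixed set of partners, 1 of which is not reported here, and, per comparison, the 3 largest rises and falls among called calcium genes whose libraries did not overlap and whose higher group averaged FPKM 1 or more. Stimate, Trpc1, Calu, Sdf4, Hspa5 and Cacna1g fall outside this rule and were named after their values were seen. Tried besides were other pseudocounts (0.1) and filters (FPKM 1 or none), p without adjustment or with a 2-fold minimum, fits with replicate numbers as a block or with 2 groups alone, TPM, quantile normalization, FPKM over summed reads, voom on recovered reads and the removal of each library. Identifiers matched GENCODE M21 in 53620 cases, 52055 with identical coordinates, among them 9 of 10 members. BLAST 2.17.0 served to find copies sharing 150 bases or more at 95% identity. Promoters were taken from RefSeq. Protein sequences were not analysed here.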

Additional observations from a re-analysis of the deposited data

How the results depend on the processing

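Of 25 calls of members given above, 14 held under all 21 alternatives. The others depended on scaling or on single libraries as stated there, and the cause was not tested. A 2-fold minimum left 3, 2, 1, 1 and 1 members called in DOX, D_DXZ and D_MgHCF against Unt and in D_MgHCF against DOX and D_DXZ, and 20, 17, 5, 26 and 21 of the further calcium genes. The share of all genes is not given here for this minimum, the pseudocount of 0.1 or the FPKM filter. Counts under these rules therefore do not set the members apart. In D_DXZ against DOX, an unadjusted p under 0.05 called 2 members and 5 further genes. Quantile normalization left 3 members called in D_DXZ against Unt. Members called in D_MgHCF against DOX numbered 5 with a pseudocount of 0.1, with voom and with unadjusted p, 9 with TPM and 7 over summed reads. Against D_DXZ they numbered 5 with a filter at FPKM of at least 1, with voom and with unadjusted p, 8 with TPM, 7 over summed reads and 1 in the fit of 2 groups, which also left 18 further genes in D_MgHCF against Unt. Of all 25044 genes, 14387 had an unadjusted p under 0.05 in D_MgHCF against DOX and 13843 in D_MgHCF against D_DXZ. Over all genes voom called 7251 higher and 5116 lower against DOX, and 6974 and 4916 against D_DXZ.

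Directions turned with TPM to these log2 values: in D_MgHCF against DOX, Atp2a2 1.06, Itpr1 0.57, Itpr3 0.66 and Mcu 1.02, in D_MgHCF against D_DXZ, Atp2a2 0.85, Itpr1 0.54, Itpr3 0.80 and Mcu 0.47, in DOX against Unt, Atp2b4 -0.69, Itpr3 -0.33, Cacnb3 -0.40 and Saraf -0.39, in D_DXZ against Unt, Atp2b4 -0.77 and Itpr3 -0.48, and in D_DXZ against DOX, Itpr1 0.035 and Itpr2 0.0039. Over summed reads they turned, in D_MgHCF against DOX, for Atp2a2 to 0.80, Itpr1 0.26, Itpr3 0.40 and Mcu 0.69, in D_MgHCF against D_DXZ, for Atp2a2 to 0.59, Itpr1 0.23, Itpr3 0.53 and Mcu 0.20, for Atp2b4 to -0.26 and -0.32 in DOX and D_DXZ against Unt, for Itpr3 to -0.055 in D_DXZ against Unt, and in D_DXZ against DOX, for Itpr1 to 0.029 and Itpr2 to 0.0081. With quantile normalization they turned in D_MgHCF against DOX for Atp2a2 (0.68), Atp2b4 (-0.23), Cacna1c (-0.037), Itpr2 (-0.038) and Itpr3 (0.42), in D_MgHCF against D_DXZ for Atp2a2 (0.51) and Itpr3 (0.51), and in DOX against Unt for Stim1 (0.19) and Saraf (-0.10).

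When single libraries were left out, members called ranged from 4 to 7 in DOX against Unt, 4 to 7 in D_DXZ against Unt, 5 to 7 in D_MgHCF against Unt, 2 to 5 in D_MgHCF against DOX and 2 to 5 in D_MgHCF against D_DXZ, and further genes in D_MgHCF against Unt from 20 to 42. Over the same removals the log2 difference of Itpr2 in D_MgHCF against Unt ranged from -0.28 to 0.022, that of Mcu in D_MgHCF against DOX from -0.23 to 0.016, and that of the Atp2b4 share between D_MgHCF and D_DXZ from -4.65 to 4.88 percentage points. Over all groups, replicate numbers showed no pairing of the samples. Deviations of same-numbered libraries correlated at -0.31 to 0.31, with 2 of 18 over 0.1, and those of other libraries at -0.31 to 0.26, with 5 of 36. Between DOX and D_DXZ the same-numbered values were 0.31, 0.033 and 0.22, and the others -0.31 to 0.15. These few values cannot decide whether those 2 groups were paired. With a replicate block, members called were 5, 7, 7, 3 and 2 in place of 6, 7, 6, 3 and 3, with no call in D_DXZ against DOX, and further genes 36, 31, 31, 44 and 39 in place of 37, 31, 33, 45 and 40. Removing 1 library from a group of 3 leaves 2, and levels below about 3 reads (Slc8a1 and, in DOX, Cacna1c) were beyond the depth of these libraries.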
